A study of Mus musculus with 12 samples.

Results

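The 34 genes described here encode the NRF2 antioxidant response and the enzymes that supply it with NADPH: the regulators of the transcription factor NRF2, the glutathione and thioredoxin systems, the 6 peroxiredoxins, enzymes that remove peroxide and superoxide, and the pentose phosphate pathway. They were chosen by name for this role, with earlier results of these data known. Their shares beside those of all genes therefore describe this list and are not an independent test of it. Each symbol matched 1 of the 54532 Ensembl identifiers in the table of counts. Their mRNA was measured by bulk RNA sequencing in 12 libraries of mouse macrophages that had been derived from bone marrow in culture, known as BMDMs. The 4 groups of 3 libraries were OxLDL-treated GpnmbR150X cells, untreated GpnmbR150X cells, OxLDL-treated control cells and untreated control cells, called R150X and WT here. OxLDL is oxidised low-density lipoprotein, which turns macrophages into lipid-laden foam cells, and the study addressed what GPNMB, a membrane glycoprotein of lipid-rich macrophages, does in this change. All animals of both genotypes were labelled as a DBA/2 by C57BL/6 cross that was then backcrossed to C57BL/6. R150X is a premature stop codon in Gpnmb that DBA/2J mice carry naturally. The labels gave no age, sex, OxLDL dose or duration, and did not say whether the 3 libraries of a group came from separate mice, cultures or pools, so every p-value measures the spread between these libraries, which may be technical.

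NRF2, encoded by Nfe2l2, is held by KEAP1 and sent for degradation until oxidants or electrophiles modify KEAP1. NRF2 then enters the nucleus, pairs with a small MAF protein such as MAFG, and binds the antioxidant response element of its target genes, which BACH1 can occupy as a repressor. The targets make glutathione and thioredoxin, which carry reducing power from NADPH to peroxiredoxins and other enzymes, and the pentose phosphate pathway is a main source of that NADPH. Much of this control acts on the NRF2 protein, which was not measured here.

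The core of the antioxidant response element, TGACNNNGC, was searched on both strands in RefSeq promoters of GRCm38.p6, which run from 250 bases before to 50 bases after each annotated start. Promoters were matched by symbol for 30 of the 34 genes, and 10 of those 30 (33.3%) held the core in at least 1 promoter, against 3781 of 27025 genes (14.0%) in the whole table. A match of letters is a description of the window and not a binding site, and elements outside the window were not searched. The matches of Pgd and Srxn1 begin 3 and 28 bases after the annotated start. That Pgd start lies inside the annotated gene, and the promoter nearer the 5′ end of Pgd held no core. Txnrd1 likewise matched at a start inside the annotated gene, and its promoter at the 5′ end held no core. In Me1 the promoter at the 5′ end held the core and a promoter inside the gene did not. The 10 matches are shown because they are where members of different roles share letters. Each is written 5′ to 3′ on the strand on which the core reads TGACNNNGC, with the core in capitals.
Nfe2l2, chr2:75704885-75704913 (-): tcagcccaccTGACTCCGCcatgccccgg
Mafg, chr11:120633751-120633779 (+): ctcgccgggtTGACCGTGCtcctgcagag
Gclm, chr3:122245413-122245441 (-): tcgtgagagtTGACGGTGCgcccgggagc
Txnrd1, chr10:82859104-82859132 (-): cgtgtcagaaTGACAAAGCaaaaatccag
Srxn1, chr2:152105542-152105570 (-): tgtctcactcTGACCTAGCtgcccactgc
Prdx1, chr4:116685456-116685484 (-): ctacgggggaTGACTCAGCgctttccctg
Sod1, chr16:90220696-90220724 (-): ggcctgagtcTGACCACGCccaccttggc
G6pdx, chrX:74428919-74428947 (+): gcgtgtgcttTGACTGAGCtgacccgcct
Pgd, chr4:149166061-149166089 (-): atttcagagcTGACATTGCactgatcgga
Me1, chr9:86695902-86695930 (-): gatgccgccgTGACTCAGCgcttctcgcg
Prdx1 and Me1 shared the same 9 letters, TGACTCAGC. Those letters contain TGANTCA, the motif bound by AP-1 factors, which was found on either strand in 3 of the 30 members with a promoter and in 8.97% of all genes in the table. The 250 bases before the promoter table's start of Prdx1, which was the most abundant member, and of G6pdx, which opens the pentose phosphate pathway, are given on the strand of the gene, so that the core appears as its reverse complement in capitals. That G6pdx start lies inside the annotated gene, whose 5′ end is at chrX:74429194, and so do all of its printed bases. The Prdx1 stretch runs past the annotated 5′ end of that gene, at chr4:116685544.
Prdx1, chr4:116685349-116685598 (+): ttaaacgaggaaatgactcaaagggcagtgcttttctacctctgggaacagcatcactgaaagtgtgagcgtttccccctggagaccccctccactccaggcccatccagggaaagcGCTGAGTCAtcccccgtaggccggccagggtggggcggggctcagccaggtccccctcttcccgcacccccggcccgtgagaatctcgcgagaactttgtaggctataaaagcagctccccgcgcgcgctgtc
G6pdx, chrX:74428881-74429130 (-): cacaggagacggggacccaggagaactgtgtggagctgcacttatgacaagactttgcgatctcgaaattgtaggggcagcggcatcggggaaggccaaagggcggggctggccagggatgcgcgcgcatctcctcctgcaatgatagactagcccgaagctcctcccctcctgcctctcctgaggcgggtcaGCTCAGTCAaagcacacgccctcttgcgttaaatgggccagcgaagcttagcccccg

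Total counts ran from 14838969 to 18222868 per library, and levels are given as CPM, the counts per 1000000 counts of a library whose total was first adjusted by the TMM factor (trimmed mean of M-values). A floor of 3 counts corresponded to 0.165 to 0.202 counts per 1000000 before that adjustment. The mutated gene separated the genotypes in every library, with Gpnmb at 691 to 724 CPM in OxLDL-treated R150X, 363 to 411 CPM in untreated R150X, 12355 to 12615 CPM in OxLDL-treated WT and 5305 to 5374 CPM in untreated WT. Replicate 1 of the untreated R150X group stood apart, with a chi-square of 9.61 and 10.5 for each degree of freedom against its 2 partners, where the other pairs within groups gave 2.37 to 4.87. The 10 macrophage markers listed, among them Adgre1 and Csf1r, were present in every library. Their summed level was 20592 to 21974 CPM in OxLDL-treated R150X, 22119 to 23106 CPM in untreated R150X, 24105 to 25763 CPM in OxLDL-treated WT and 20314 to 20615 CPM in untreated WT. Most of that sum came from Lyz2, so it says little about the other macrophage markers. Markers of other cells were present too. The 10 fibroblast and stromal markers, most of whose sum came from Col1a1, Col1a2 and Col3a1, added up to 6101 to 6401 CPM in OxLDL-treated R150X, 8813 to 8891 CPM in untreated R150X, 6236 to 6860.1 CPM in OxLDL-treated WT and 13228 to 13331 CPM in untreated WT. The 12 neutrophil markers added up to 42.7 to 44.7 CPM in OxLDL-treated R150X, 285 to 310.5 CPM in untreated R150X, 135 to 156 CPM in OxLDL-treated WT and 559 to 591 CPM in untreated WT, with Retnlg and Ly6g at 0 in some libraries. The adipocyte markers added up to 38.5 to 44.1 CPM in OxLDL-treated R150X, 3.07 to 4.23 CPM in untreated R150X, 2.36 to 4.36 CPM in OxLDL-treated WT and 0.633 to 0.862 CPM in untreated WT. Haemoglobin genes, which would show red cells, were at or near 0 throughout. Xist, the RNA of the inactive X chromosome, averaged 339 and 304 CPM in OxLDL-treated and untreated R150X and 0.0459 and 1.69 CPM in OxLDL-treated and untreated WT. The Y-linked gene Ddx3y stood at 55.4 to 60.1 CPM in OxLDL-treated R150X, 51.3 to 59.1 CPM in untreated R150X, 83.6 to 100.4 CPM in OxLDL-treated WT and 85.1 to 86.8 CPM in untreated WT, and Eif2s3y, Kdm5d and Uty were likewise present in every library and lower in R150X. The R150X libraries thus held both Xist and Y-linked RNA, and the sex make-up of the libraries and the genotype cannot be told apart. Prdx4 and G6pdx lie on chromosome X.

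Most of the antioxidant and pentose phosphate genes were lowest in untreated WT cells. Group means were lowest there for 23 of the 34 genes, against 32.7% of all 15338 genes tested, and for 16 of the 34 all 3 untreated WT libraries lay below the other 9 libraries, against 12.5% of all genes. These orders depend on the scaling. The TMM factors of the untreated WT libraries were about 1.05 and those of the other 9 were 0.969 to 1.00, which lowers the CPM of untreated WT relative to the rest. The orders were not recomputed with another scaling, and members close between groups, such as Nfe2l2 and Bach1, could change place. Relative to untreated WT, 27 members were higher and 1 was lower in untreated R150X, where 18.1% of all genes were called higher and 14.8% lower (33.0% in either direction). With OxLDL, 5 members were higher and 2 lower in R150X, against 6.10% and 6.92% of all genes (13.0% in either direction). The share of members called lower was near that of all genes. OxLDL raised 23 members and lowered 4 in WT, against 22.7% and 23.1% of all genes (45.8% in either direction), and raised 12 and lowered 11 in R150X, against 18.4% and 20.6% (39.0% in either direction). The response to OxLDL was lower in R150X than in WT for 21 members, against 5.19% of all genes. It was higher for 0, against 3.13% of all genes (8.32% in either direction), by edgeR's quasi-likelihood test, with 2 members higher at an unadjusted p under 0.05 and 1 called by DESeq2. Calls rest on p-values adjusted by Benjamini-Hochberg over the 15338 genes, at 0.05, and all 34 members passed the filter on low counts. Differences are log2 fold changes, R150X over WT or OxLDL over untreated, and a difference in response is the OxLDL change in R150X minus that in WT. The untreated WT libraries enter both the untreated genotype comparison and the OxLDL comparison in WT, and the untreated R150X libraries likewise enter that genotype comparison and the OxLDL comparison in R150X, so these are not independent of each other. The difference in response is built from the same 4 groups and is not independent of these comparisons either. The summed level of the 34 genes was 11436 to 11809.9 CPM in OxLDL-treated R150X, 10672 to 11622 CPM in untreated R150X, 11327 to 11950.4 CPM in OxLDL-treated WT and 7954 to 8108 CPM in untreated WT. Prdx1 was the largest part of that sum, with means of 3932, 3205, 4010 and 2003 CPM in the same order of groups. The sum therefore follows Prdx1 more than any other member. The group with the lowest sum was also the one with the highest stromal and neutrophil marker sums. In bulk samples, fewer cells of a type and less RNA per cell cannot be told apart, and the part of these other cells in the differences was not tested.

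**Figure D1:**
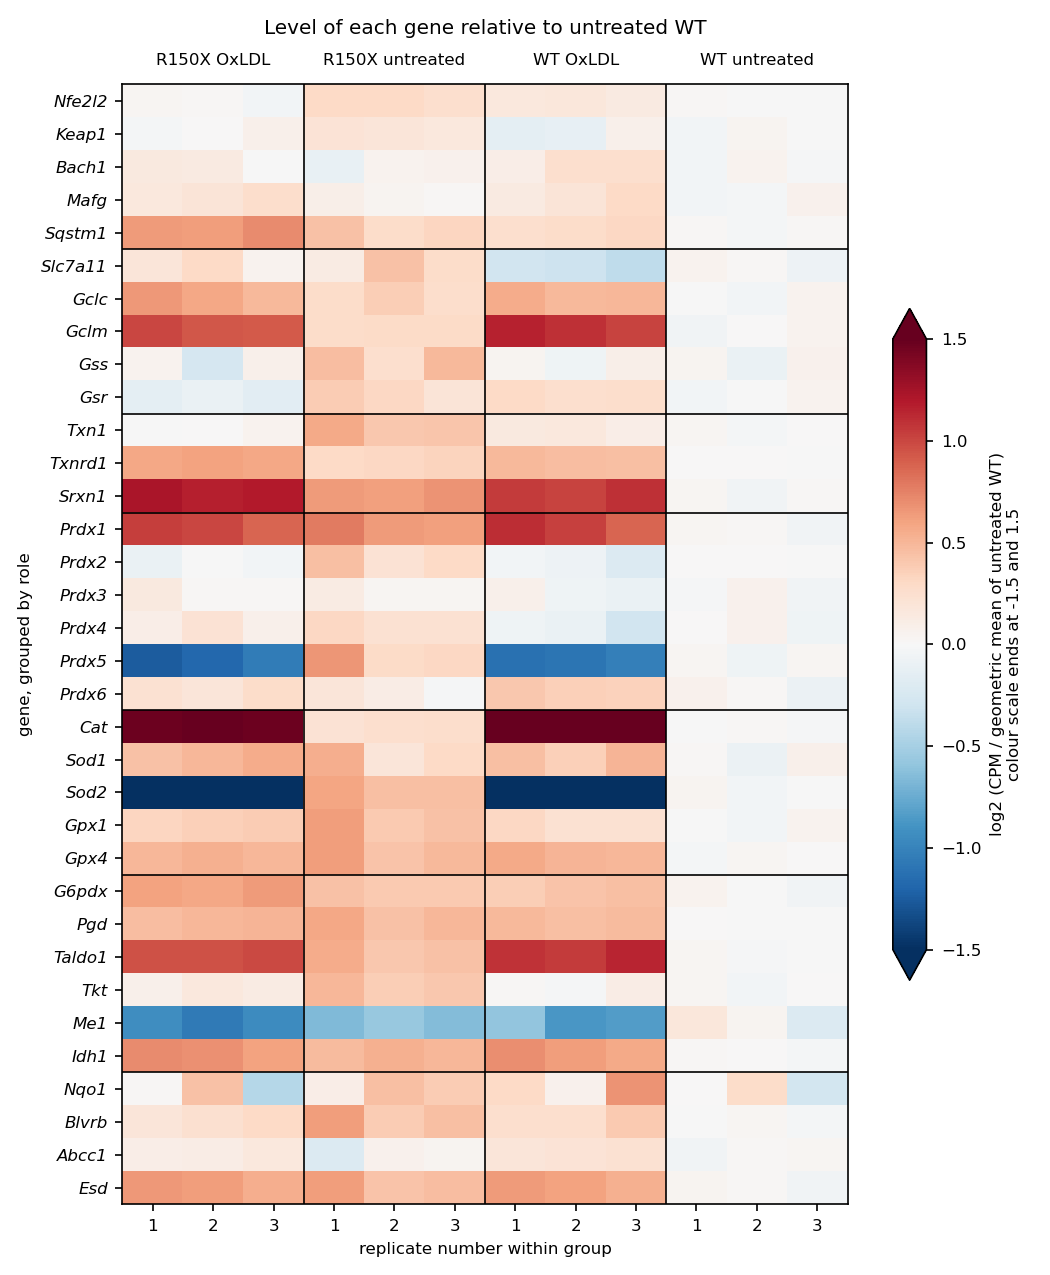
Level of each of the 34 genes in each of the 12 libraries, as log2 of CPM over the geometric mean of the 3 untreated WT libraries, with genes in rows grouped by role and libraries in columns grouped by genotype and treatment. Most rows are red in 3 of the 4 groups and near white in untreated WT, while Sod2, Prdx5 and Me1 are blue with OxLDL in both genotypes; the colour scale ends at -1.5 and 1.5, which Cat and Sod2 exceed.

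**Figure D2:**
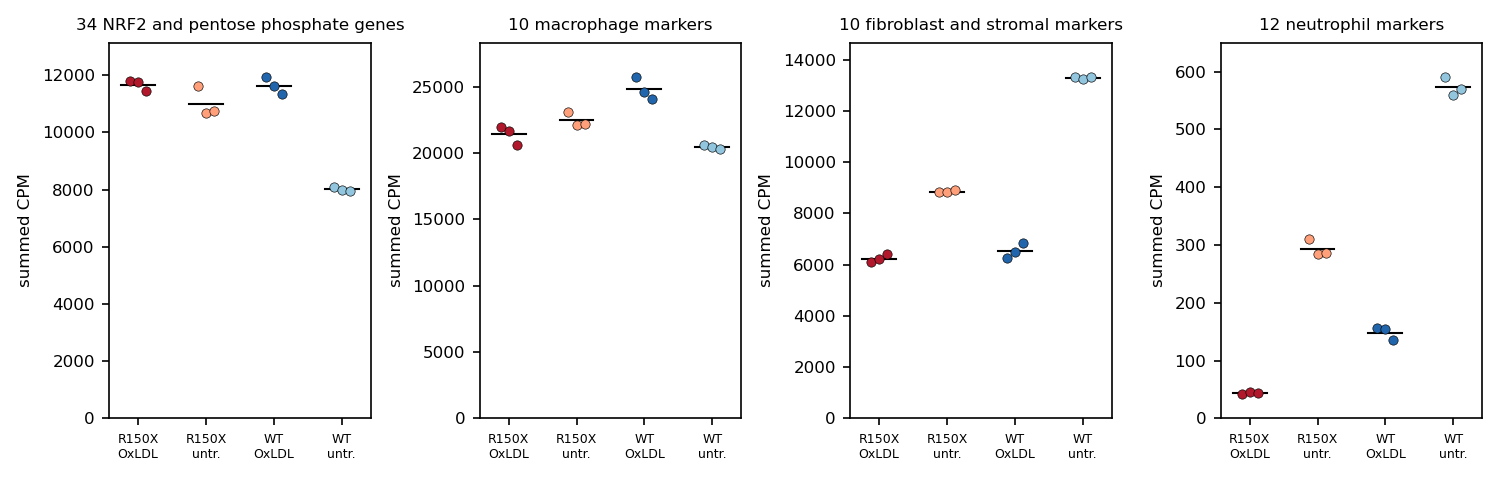
Summed CPM per library (points) and group means (lines) for the 34 genes and for the listed markers of macrophages, of fibroblasts and stroma and of neutrophils. The 34 genes are lowest and the stromal and neutrophil markers highest in the 3 untreated WT libraries. Most of the macrophage sum comes from Lyz2, and Prdx1 is the largest part of the sum of the 34 genes.

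Among the regulators, the mRNA of NRF2 itself moved in opposite directions with OxLDL in the 2 genotypes. Nfe2l2 stood at 228, 227 and 217 CPM in OxLDL-treated R150X and 275, 274 and 267 CPM in untreated R150X. In WT it stood at 249, 251 and 246 CPM with OxLDL and 226, 223 and 222 CPM untreated. Untreated R150X was the highest group, with all 3 libraries above those of every other group. Its log2 fold change, R150X over WT, was 0.28 (SE 0.0432, adjusted p = 3.75e-05) in untreated cells and -0.15 (SE 0.0434, adjusted p = 0.0234) with OxLDL. The call with OxLDL was lost without the filter on low counts or without OxLDL-treated R150X replicate 2 or 3 or OxLDL-treated WT replicate 1 or 2 (adjusted p up to 0.114). The OxLDL change of Nfe2l2 was -0.28 (adjusted p = 2.02e-05) in R150X and 0.15 (adjusted p = 0.00645) in WT, a difference in response of -0.43 (SE 0.0612, adjusted p = 8.33e-05). The rise in WT was not called with scaling by library size alone or without the filter on low counts (adjusted p up to 0.487). Keap1, which encodes the adaptor that captures NRF2 and overlaps the antisense gene Gm16754, stood at 57.9, 59.4 and 62.4 CPM in OxLDL-treated R150X and 68.3, 67.1 and 65.9 CPM in untreated R150X. WT libraries held 53.5, 54.2 and 62.5 CPM after OxLDL and 57.6, 60.9 and 59.0 CPM without it. Its untreated R150X libraries lay above the untreated WT libraries by a log2 difference of 0.18 (adjusted p = 0.026), a call lost with scaling by library size alone, without the filter on low counts or without untreated R150X replicate 1 or 2 or untreated WT replicate 1 or 3 (adjusted p up to 0.192). Its response to OxLDL was -0.16 (adjusted p = 0.0387) in R150X and -0.062 (adjusted p = 0.44) in WT, and the call in R150X was lost with DESeq2, in the 2 groups alone or without OxLDL-treated R150X replicate 1 or 2 or untreated R150X replicate 1, 2 or 3 (adjusted p up to 0.133). Bach1, the repressor, stood at 163, 162 and 147 CPM in OxLDL-treated R150X and 137, 154 and 154 CPM in untreated R150X. Its level in WT was 158, 176 and 176 CPM with OxLDL and 144, 154 and 146 CPM untreated. It rose with OxLDL in WT, by 0.20 (adjusted p = 0.00937), a call lost with scaling by library size alone (adjusted p up to 0.273), and its untreated genotype groups overlapped, at 0.0057 (adjusted p = 0.953). Mafg, a partner of NRF2 whose exons overlap those of Sirt7 on the same strand, ranged from 146 to 186 CPM over all libraries and had log2 changes with OxLDL of 0.16 (adjusted p = 0.0247) in R150X and 0.21 (adjusted p = 0.00261) in WT. These calls were lost with scaling by library size alone, without the filter on low counts or without OxLDL-treated R150X replicate 2 or 3 or untreated R150X replicate 2 or 3 (adjusted p up to 0.111) in R150X and with scaling by library size alone (adjusted p up to 0.141) in WT. Sqstm1, which encodes the autophagy receptor p62 that can bind KEAP1, stood at 723, 719 and 761 CPM in OxLDL-treated R150X and 628, 563 and 579.7 CPM in untreated R150X. WT cells gave 552, 559.8 and 577 CPM with OxLDL and 469, 455 and 469 CPM without. It was the one regulator with both genotype differences called in the same direction, 0.35 (SE 0.0461, adjusted p = 7.2e-06) untreated and 0.38 (SE 0.0460, adjusted p = 4.04e-06) with OxLDL, and it rose with OxLDL by 0.32 in R150X and 0.28 in WT.

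In the glutathione system, the 5 genes were all higher in untreated R150X than in untreated WT, and they parted under OxLDL. Slc7a11 encodes the transporter that imports cystine for glutathione. It stood at 90.5, 97.6 and 82.8 CPM in OxLDL-treated R150X and 86.6, 108 and 96.4 CPM in untreated R150X. Values in WT were 65.3, 64.1 and 61.3 CPM with OxLDL and 82.8, 80.7 and 75.5 CPM untreated. It fell with OxLDL in WT, by a log2 change of -0.33 (adjusted p = 0.00109), and its change in R150X was -0.10 (adjusted p = 0.272). Under OxLDL all 3 R150X libraries lay above all 3 WT libraries, by 0.51 (SE 0.0741, adjusted p = 4.8e-05). Parts of its annotated exons resemble alpha-tubulin genes such as Tuba1b, so its count is uncertain. Gclm encodes the modifier subunit of the enzyme that makes the glutathione precursor, and stood at 235, 225 and 223 CPM in OxLDL-treated R150X and 142, 143 and 143 CPM in untreated R150X. The WT libraries had 261, 251 and 238 CPM with OxLDL and 113, 118 and 122 CPM untreated. OxLDL raised it in both genotypes, by 0.67 (SE 0.0492, adjusted p = 3.2e-10) in R150X and 1.09 (SE 0.0496, adjusted p = 9.23e-14) in WT, and the rise in R150X was smaller, with a log2 change of -0.41 (adjusted p = 0.00049). Part of an annotated Gclm transcript resembles Ppia and its pseudogenes, so its count is uncertain. Gclc, the catalytic subunit, ranged from 42.5 to 68.7 CPM and rose with OxLDL by 0.27 (adjusted p = 0.000742) in R150X and 0.51 (adjusted p = 2.69e-07) in WT. Gsr encodes glutathione reductase, which uses NADPH to regenerate glutathione. It stood at 134, 138 and 132 CPM in OxLDL-treated R150X and 193, 184 and 169.8 CPM in untreated R150X. In WT it stood at 182, 176 and 178 CPM with OxLDL and 144, 147 and 154 CPM untreated. The order of the genotypes turned round with treatment: R150X was higher in untreated cells, 0.30 (SE 0.0512, adjusted p = 0.000144), and lower with OxLDL, -0.41 (SE 0.0517, adjusted p = 8.48e-06). OxLDL lowered Gsr in R150X, with a log2 change of -0.43 (adjusted p = 6.23e-07), and raised it in WT, by 0.27 (adjusted p = 0.000187), a difference in response of -0.70 (SE 0.0728, adjusted p = 2.57e-06). Gss, glutathione synthetase, was weakly expressed, at 18.1, 14.8 and 18.5 CPM in OxLDL-treated R150X and 24.1, 20.9 and 24.6 CPM in untreated R150X. WT libraries held 18.0, 16.7 and 18.6 CPM after OxLDL and 18.1, 16.3 and 18.2 CPM without it. It fell with OxLDL in R150X, with a log2 change of -0.44 (adjusted p = 0.00109), against 0.023 (adjusted p = 0.875) in WT. Its difference in response, -0.46 (adjusted p = 0.0445), was lost with scaling by library size alone or without OxLDL-treated R150X replicate 2, untreated R150X replicate 1 or 3, OxLDL-treated WT replicate 1 or 3 or untreated WT replicate 1, 2 or 3 (adjusted p up to 0.133). Its exons overlap the opposite-strand gene Acss2.

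All 3 thioredoxin system genes were higher in untreated R150X than in untreated WT. Thioredoxin itself, Txn1, stood at 204, 207 and 214 CPM in OxLDL-treated R150X and 304, 273 and 274 CPM in untreated R150X. Its level in WT was 227, 229 and 220.3 CPM with OxLDL and 210.3, 201 and 206 CPM untreated. Untreated R150X stood above every other group, by 0.46 (SE 0.0496, adjusted p = 4.15e-07) against untreated WT, and OxLDL lowered Txn1 in R150X, with a log2 change of -0.44 (adjusted p = 2.55e-07). In WT the change was 0.13 (adjusted p = 0.035), a call lost with scaling by library size alone, without the filter on low counts or without OxLDL-treated WT replicate 1 or 2 or untreated WT replicate 2 or 3 (adjusted p up to 0.784). Txnrd1, the reductase that recharges thioredoxin, stood at 413, 419.7 and 414 CPM in OxLDL-treated R150X and 341, 343 and 349 CPM in untreated R150X. WT cells gave 389, 380.1 and 379 CPM with OxLDL and 278, 277 and 275 CPM without. The 4 groups did not overlap, with OxLDL-treated R150X highest and untreated WT lowest, and OxLDL raised it by 0.27 (SE 0.0407, adjusted p = 1.53e-05) in R150X and 0.47 (SE 0.0409, adjusted p = 4.4e-09) in WT. The difference in response, -0.20 (adjusted p = 0.0366), was lost with scaling by library size alone, without the filter on low counts or without OxLDL-treated R150X replicate 1, 2 or 3, untreated R150X replicate 3, OxLDL-treated WT replicate 1 or 2 or untreated WT replicate 1, 2 or 3 (adjusted p up to 0.281). Srxn1 encodes sulfiredoxin, which repairs over-oxidised peroxiredoxins. It stood at 361, 347 and 354 CPM in OxLDL-treated R150X and 242, 238 and 248 CPM in untreated R150X. Values in WT were 319.9, 314 and 333 CPM with OxLDL and 158, 149.96 and 158 CPM untreated. The 4 groups did not overlap. R150X exceeded WT by 0.65 (SE 0.0458, adjusted p = 1.04e-09) in untreated cells and by 0.14 (adjusted p = 0.0494) with OxLDL, where the call was lost without the filter on low counts or without OxLDL-treated R150X replicate 1, 2 or 3 or OxLDL-treated WT replicate 1 or 2 (adjusted p up to 0.203). OxLDL raised Srxn1 by 0.54 in R150X and 1.05 in WT.

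**Figure D3:**
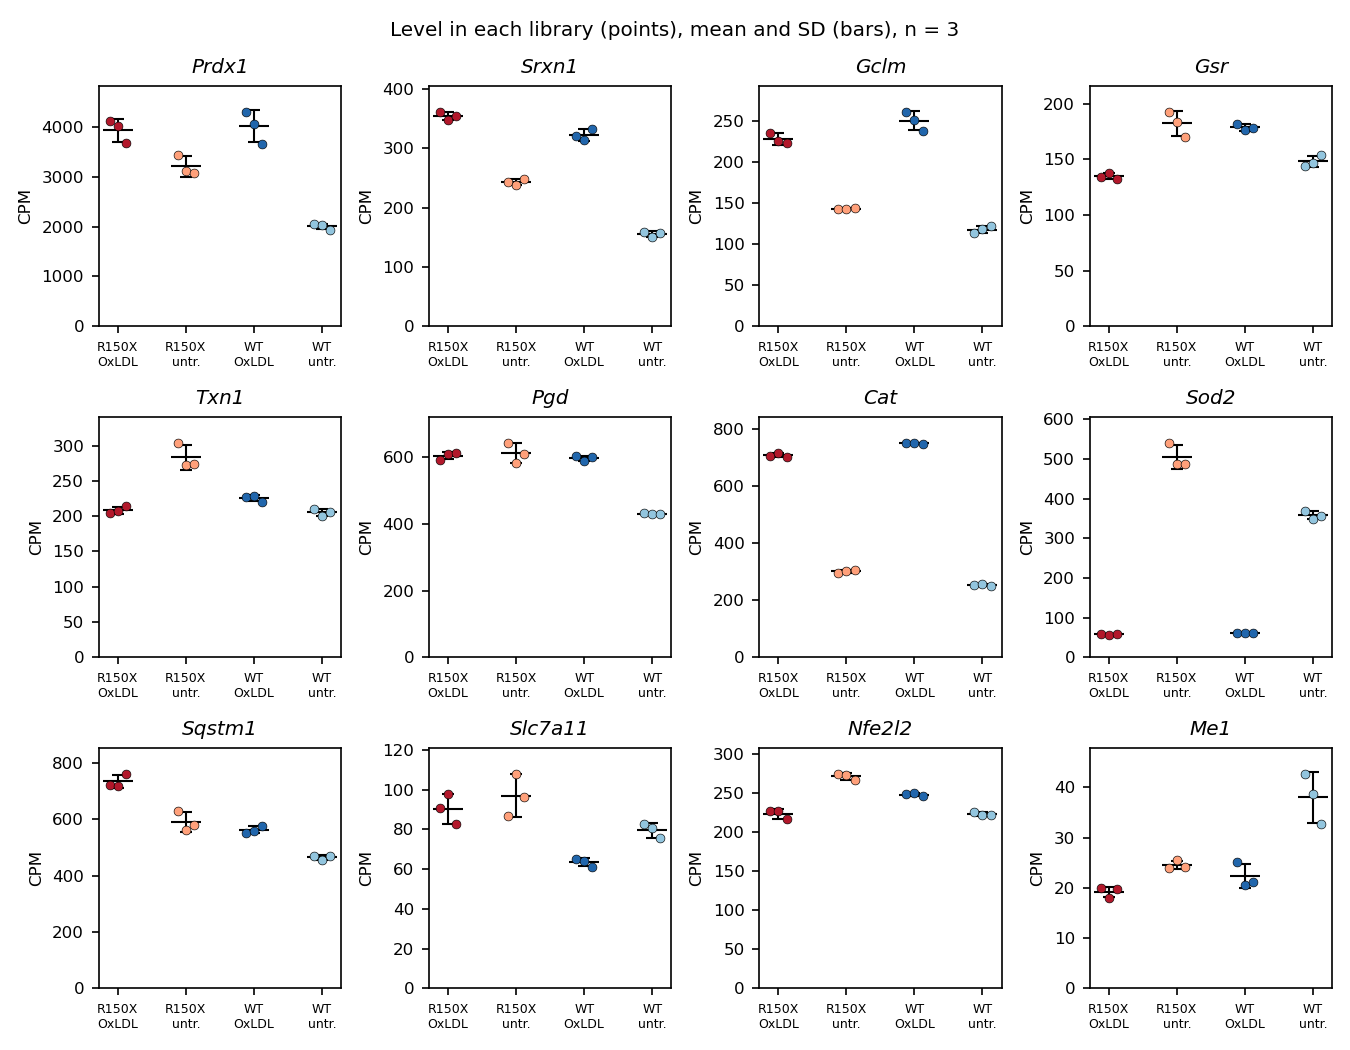
CPM of 12 genes in each library (points), with group means and SD (bars, n = 3 libraries). Prdx1, Srxn1 and Pgd are lowest in untreated WT, Gsr and Txn1 are highest in untreated R150X, Cat is high and Sod2 low in both OxLDL groups, and Me1 is highest in untreated WT.

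Most peroxiredoxins reduce peroxides with electrons from thioredoxin, and the 6 genes of the family behaved in several ways. Prdx1, a cytosolic member, stood at 4118, 4009 and 3668 CPM in OxLDL-treated R150X and 3436, 3105 and 3074 CPM in untreated R150X. The WT libraries had 4303, 4064 and 3663 CPM with OxLDL and 2044, 2029 and 1935 CPM untreated. The 3 untreated WT libraries lay below all 9 others, and the OxLDL-treated genotypes overlapped. Its genotype difference was 0.68 (SE 0.0546, adjusted p = 7.01e-09) in untreated cells and -0.028 (adjusted p = 0.802) with OxLDL, and OxLDL raised it by 0.29 (adjusted p = 0.000164) in R150X and 1.00 (adjusted p = 2.01e-12) in WT. The smaller response in R150X, -0.71 (SE 0.0769, adjusted p = 4.37e-06), was the lowest interaction value of the 34 genes. Prdx5, which works in mitochondria, peroxisomes and cytosol, moved the other way with OxLDL. It stood at 168, 176 and 193 CPM in OxLDL-treated R150X and 633, 486 and 493 CPM in untreated R150X. In WT it stood at 184, 187 and 195 CPM with OxLDL and 408, 382 and 407 CPM untreated. OxLDL lowered it, with a log2 change of -1.58 (SE 0.0775, adjusted p = 3.05e-13) in R150X and -1.08 (SE 0.0770, adjusted p = 1.61e-10) in WT, and untreated R150X exceeded untreated WT by 0.43 (adjusted p = 0.000173); its exons overlap the opposite-strand gene Trmt112. Prdx2, another cytosolic member whose exons overlap Junb on the other strand, stood at 143, 153 and 149 CPM in OxLDL-treated R150X and 209, 178 and 189 CPM in untreated R150X. WT libraries held 149, 146 and 133 CPM after OxLDL and 154, 154 and 152 CPM without it. It was higher in untreated R150X, by 0.32 (adjusted p = 0.000191), and OxLDL lowered it in R150X, with a log2 change of -0.37 (adjusted p = 2.14e-05). Its difference in response, -0.26 (adjusted p = 0.0488), was lost with DESeq2's size factors, with scaling by library size alone or without OxLDL-treated R150X replicate 1, 2 or 3, untreated R150X replicate 1 or 3, OxLDL-treated WT replicate 1 or 2 or untreated WT replicate 1, 2 or 3 (adjusted p up to 0.199). Prdx4, the form of the endoplasmic reticulum, stood at 45.6, 49.3 and 44.6 CPM in OxLDL-treated R150X and 52.8, 49.8 and 49.5 CPM in untreated R150X. Its level in WT was 40.6, 39.7 and 34.8 CPM with OxLDL and 42.6, 44.3 and 40.5 CPM untreated. R150X was higher in both conditions, by 0.25 (adjusted p = 0.0054) untreated and 0.28 (adjusted p = 0.00862) with OxLDL, where the call was lost without OxLDL-treated R150X replicate 2 or OxLDL-treated WT replicate 3 (adjusted p up to 0.0662). The gene is X-linked. Prdx3, the mitochondrial form, ranged from 47.2 to 55.8 CPM over all 12 libraries and passed in no comparison by edgeR (adjusted p from 0.46 to 0.996). Prdx6 ranged from 63.2 to 88.5 CPM and rose with OxLDL in WT, by 0.37 (adjusted p = 2.37e-05), against 0.13 (adjusted p = 0.0829) in R150X.

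The 5 peroxide and superoxide enzymes were all higher in untreated R150X, and with OxLDL Cat rose most and Sod2 fell most of the 34 genes in both genotypes. Cat encodes catalase, the peroxisomal enzyme that splits hydrogen peroxide. It stood at 705, 714 and 702 CPM in OxLDL-treated R150X and 294, 302 and 305 CPM in untreated R150X. WT cells gave 750.3, 751 and 747 CPM with OxLDL and 253, 257 and 251 CPM without. OxLDL raised it by 1.23 (SE 0.0399, adjusted p = 2.7e-16) in R150X and 1.56 (SE 0.0402, adjusted p = 6.14e-18) in WT, with no overlap between treated and untreated libraries, and the response in R150X was smaller, with a log2 change of -0.33 (adjusted p = 0.000542). Sod2 encodes the mitochondrial superoxide dismutase, which inflammatory NF-kB signals are known to induce. It stood at 59.0, 56.6 and 58.0 CPM in OxLDL-treated R150X and 541, 488 and 489 CPM in untreated R150X. Values in WT were 61.2, 61.6 and 61.7 CPM with OxLDL and 369.6, 349 and 356 CPM untreated. OxLDL lowered it, with a log2 change of -3.13 (SE 0.0539, adjusted p = 5.38e-21) in R150X and -2.54 (SE 0.0532, adjusted p = 1.81e-19) in WT. Untreated R150X exceeded untreated WT by 0.50 (adjusted p = 1.01e-07), while the difference between the OxLDL-treated genotypes was -0.087 (adjusted p = 0.349). Part of an annotated Sod2 transcript is near-identical to Rps6ka2, so its count is uncertain. Gpx1, the cytosolic glutathione peroxidase, stood at 291, 298 and 304 CPM in OxLDL-treated R150X and 358, 306 and 315 CPM in untreated R150X. The WT libraries had 289, 273 and 273 CPM with OxLDL and 231, 226 and 241 CPM untreated. It was higher in untreated R150X by 0.49 (adjusted p = 8.14e-07), and its OxLDL change was -0.13 (adjusted p = 0.0608) in R150X and 0.26 (adjusted p = 0.000637) in WT. Gpx4, which reduces lipid peroxides in membranes, stood at 277, 284 and 277 CPM in OxLDL-treated R150X and 304, 263 and 275 CPM in untreated R150X. In WT it stood at 290.1, 279.7 and 278 CPM with OxLDL and 192, 200.1 and 197 CPM untreated. It was higher in untreated R150X by 0.51 (adjusted p = 1.47e-07). OxLDL raised it in WT, by 0.53 (adjusted p = 2.37e-08), and its change in R150X was -0.0053 (adjusted p = 0.948). The pseudogene Gpx4-ps2 matches it over up to 762 bases at up to 99.8% identity and held 20.5% as many counts, so the count of Gpx4 is uncertain. Sod1, the cytosolic superoxide dismutase, ranged from 77.9 to 121 CPM and rose with OxLDL in WT, by 0.44 (adjusted p = 4.14e-05), against 0.15 (adjusted p = 0.115) in R150X.

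The NADPH-supplying enzymes were higher in untreated R150X, with Me1 as the exception. G6pdx, the first and rate-setting enzyme of the pentose phosphate pathway, stood at 245, 241 and 251 CPM in OxLDL-treated R150X and 219, 211 and 212 CPM in untreated R150X. WT libraries held 209, 216 and 220.3 CPM after OxLDL and 167, 161 and 156 CPM without it. R150X exceeded WT by 0.41 (SE 0.0462, adjusted p = 8.84e-07) in untreated cells and 0.19 (SE 0.0460, adjusted p = 0.00747) with OxLDL, and OxLDL raised it in both genotypes, by 0.20 in R150X and 0.41 in WT. The difference in response, -0.22 (adjusted p = 0.0417), was lost with DESeq2's size factors, with scaling by library size alone, without the filter on low counts or without OxLDL-treated R150X replicate 1 or 2, OxLDL-treated WT replicate 2 or 3 or untreated WT replicate 2 or 3 (adjusted p up to 0.249). It is X-linked and its exons overlap Ikbkg on the other strand. Pgd, which makes the second NADPH of the pathway, stood at 592, 608 and 611 CPM in OxLDL-treated R150X and 643, 582 and 609 CPM in untreated R150X. Its level in WT was 603, 587 and 599 CPM with OxLDL and 434, 431 and 429 CPM untreated. The untreated WT libraries lay below the other 9, which overlapped. The genotype difference was 0.50 (SE 0.0430, adjusted p = 1.72e-08) in untreated cells and 0.018 (adjusted p = 0.847) with OxLDL, and the OxLDL change was -0.018 (adjusted p = 0.78) in R150X and 0.47 (adjusted p = 9.64e-09) in WT. Taldo1 and Tkt encode transaldolase and transketolase, which link the pathway back to glycolysis. Taldo1 stood at 536, 533 and 547 CPM in OxLDL-treated R150X and 405, 365 and 373 CPM in untreated R150X. WT cells gave 582, 572 and 606 CPM with OxLDL and 281, 272 and 274 CPM without. OxLDL raised it by 0.50 (SE 0.0459, adjusted p = 1.23e-08) in R150X and 1.09 (SE 0.0464, adjusted p = 2.79e-14) in WT, a difference in response of -0.59 (adjusted p = 5.03e-06). Tkt stood at 365, 386 and 376 CPM in OxLDL-treated R150X and 489, 445 and 459 CPM in untreated R150X. Values in WT were 351, 341 and 374 CPM with OxLDL and 354, 336 and 348 CPM untreated. It was highest in untreated R150X, 0.42 (adjusted p = 1.06e-06) over untreated WT, and OxLDL lowered it there, with a log2 change of -0.31 (adjusted p = 3.23e-05), against a change of 0.037 (adjusted p = 0.568) in WT. Idh1, the cytosolic isocitrate dehydrogenase that makes NADPH outside the pathway, stood at 245, 241 and 229 CPM in OxLDL-treated R150X and 209, 218 and 212 CPM in untreated R150X. The WT libraries had 244, 232 and 222 CPM with OxLDL and 152, 151 and 148 CPM untreated. It was 0.50 (adjusted p = 9.42e-08) higher in untreated R150X, and OxLDL raised it by 0.16 (adjusted p = 0.0106) in R150X, a call lost without OxLDL-treated R150X replicate 1 (adjusted p up to 0.0502), and by 0.63 (adjusted p = 5.63e-10) in WT. Me1, the cytosolic malic enzyme, stood at 19.9, 18.1 and 19.7 CPM in OxLDL-treated R150X and 24.0, 25.6 and 24.1 CPM in untreated R150X. In WT it stood at 25.1, 20.6 and 21.2 CPM with OxLDL and 42.7, 38.8 and 32.7 CPM untreated. It was the only member called lower in untreated R150X, with a log2 change of -0.63 (SE 0.0922, adjusted p = 2.29e-05), and OxLDL lowered it, with a log2 change of -0.36 (adjusted p = 0.00674) in R150X and -0.77 (adjusted p = 7.49e-07) in WT.

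Of the other 4 genes, Blvrb and Esd behaved like the majority. Blvrb, a biliverdin and flavin reductase that acts in haem breakdown, stood at 188, 195 and 203 CPM in OxLDL-treated R150X and 255, 216 and 226 CPM in untreated R150X. WT libraries held 197, 197 and 218 CPM after OxLDL and 165, 169 and 162 CPM without it. It was 0.49 (adjusted p = 2.27e-06) higher in untreated R150X, and OxLDL lowered it in R150X, with a log2 change of -0.25 (adjusted p = 0.00203), and raised it in WT, by 0.30 (adjusted p = 0.000271). Esd, an esterase that completes the glutathione-dependent removal of formaldehyde, stood at 439, 429 and 408 CPM in OxLDL-treated R150X and 431, 375 and 385 CPM in untreated R150X. Its level in WT was 434, 424 and 403 CPM with OxLDL and 287, 282 and 269 CPM untreated. It was 0.51 (adjusted p = 3.59e-07) higher in untreated R150X, and its OxLDL change was 0.10 (adjusted p = 0.146) in R150X and 0.59 (adjusted p = 8.46e-09) in WT. Nqo1, a quinone reductase often used as a readout of NRF2, was barely expressed in these cells. It ranged from 2.07 to 4.45 CPM over all libraries, the groups overlapped in each comparison, and none was called (log2 values from -0.31 to 0.35, and -0.62 in the interaction, with adjusted p from 0.219 to 0.433 by edgeR), so that a change of the size seen in other members may not be detectable at this level. Abcc1, a pump that exports glutathione conjugates, ranged from 210 to 284 CPM and rose with OxLDL by 0.15 (adjusted p = 0.0491) in R150X and 0.21 (adjusted p = 0.00657) in WT. These calls were lost with scaling by library size alone, without the filter on low counts, in the 2 groups alone or without OxLDL-treated R150X replicate 1, 2 or 3 or untreated R150X replicate 1 (adjusted p up to 0.238) in R150X and with scaling by library size alone (adjusted p up to 0.227) in WT. Per kilobase of exon, and so comparable between genes, levels in untreated WT ran from 658 CPM per kb for Prdx1, followed by Txn1 at 196 and Prdx5 at 187, down to 5.72 for Slc7a11, 2.96 for Gss and 1.82 for Nqo1.

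The comparison of untreated genotypes asked how the R150X allele affects macrophages before lipid loading. The 27 members that rose had log2 fold changes from 0.18 for Keap1 to 0.68 for Prdx1, with Srxn1, Gpx4, Esd and Pgd next, and each had all 3 R150X libraries above all 3 WT libraries, a separation found in 24.4% of all genes; Me1 was separated the other way, as 21.6% of genes were. The 6 members that were not called were Bach1, Mafg, Prdx3, Prdx6, Nqo1 and Abcc1. The median log2 fold change of the 34 was 0.33, against 0.010 over all genes tested. Beside this, 7 of 10 stromal markers were lower and 2, Lum and Cxcl12, were higher in R150X, 9 of 10 tested neutrophil markers were lower and 0 higher, and 5 of 10 macrophage markers were higher and 2 lower by edgeR. Without replicate 1 of the untreated R150X group, 26 members were higher and 1 lower.

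Under OxLDL, R150X differed from WT in 7 members. Slc7a11, Sqstm1, Prdx4, G6pdx and Srxn1 were higher in R150X, with log2 fold changes of 0.51, 0.38, 0.28, 0.19 and 0.14, and Gsr and Nfe2l2 were lower, at -0.41 and -0.15. The median of the 34 was -0.013, against 0.0020 over all genes. Libraries of the 2 genotypes did not overlap for 7 members that were higher and 10 that were lower in R150X, a separation found in 15.0% and 15.0% of all genes. The counts of 5 and 2 fell to 3 and 1 without replicate 2 of OxLDL-treated R150X, and the 2 lower calls became 1 without R150X replicate 3 or WT replicate 1 or 2 of the OxLDL groups. Beside this, 9 of 10 tested neutrophil markers were lower in R150X and 0 higher. Of 10 stromal markers 1 was higher and 3 lower, and of 10 macrophage markers 1 was higher and 5 lower. All 3 tested adipocyte markers were higher in R150X, with OxLDL and untreated. OxLDL raised 3 of these in R150X and 2 in WT, and 0 were called in the interaction. The part of these cells was not tested.

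**Figure D4:**
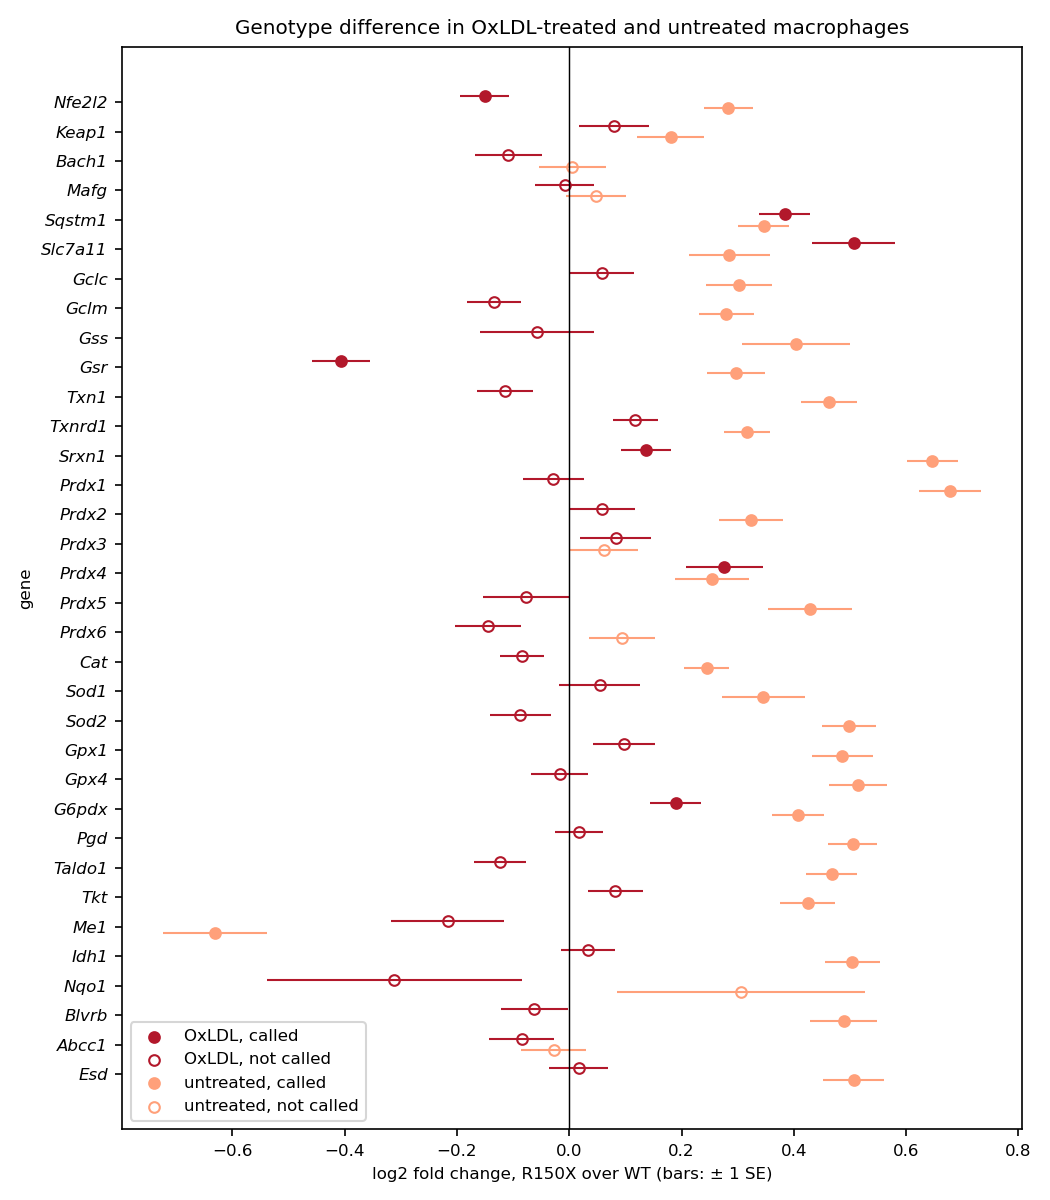
Log2 fold change of R150X over WT (± 1 SE) for each gene in OxLDL-treated cells (dark) and untreated cells (light), with filled points for called genes. Most untreated values lie between 0.18 and 0.68, and most OxLDL values lie near 0, with Sqstm1 and Slc7a11 high and Gsr low.

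The OxLDL comparisons asked how lipid loading changes each genotype. In WT, Cat, Taldo1, Gclm, Srxn1 and Prdx1 rose most, by log2 changes of 1.56, 1.09, 1.09, 1.05 and 1.00, and Sod2, Prdx5, Me1 and Slc7a11 fell, at changes of -2.54, -1.08, -0.77 and -0.33. In R150X the same 5 genes headed by Cat had changes of 1.23, 0.50, 0.67, 0.54 and 0.29. Members that fell in R150X were Sod2, Prdx5, Txn1, Gss, Gsr, Prdx2, Me1, Tkt, Nfe2l2, Blvrb and Keap1. The medians of the 34 were -0.0029 in R150X and 0.27 in WT, against 0.0039 and 0.014 over all genes. Treated and untreated libraries did not overlap for 12 members that were higher and 13 that were lower in R150X, against 22.7% and 23.7% of all genes, and for 23 and 5 in WT, against 28.0% and 27.9%. Scaling by library size alone moved the median of all genes in WT (log2 shift -0.11) and gave 18 members higher and 7 lower there, against 23 and 4, and 10 higher and 12 lower in R150X, against 12 and 11; the share of all calls that were higher was 31.6% in WT with that scaling against 49.6% with TMM. With OxLDL, 6 of 10 stromal markers fell in R150X and 6 in WT, as did 7 and 6 of 10 tested neutrophil markers, while 1 stromal marker rose in R150X and 0 in WT, and 0 and 2 neutrophil markers rose (Mmp8 and Mpo in WT). Of the 10 macrophage markers, 4 rose and 6 fell in R150X and 4 rose and 4 fell in WT. Cd68, Lyz2, Mertk and Mrc1 rose in both genotypes, and Adgre1, Fcgr1, Cd14 and Spi1 fell in both.

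The interaction asked whether the response to OxLDL depended on the genotype. It equals the genotype difference with OxLDL minus that in untreated cells, so it is no separate result from those 2 comparisons. Their medians over the 34 genes were -0.013 with OxLDL and 0.33 untreated. A lower response can be a smaller rise, a fall in place of a rise or a deeper fall, the last as for Sod2 and Prdx5. The 21 members with a lower response in R150X had log2 differences from -0.71 for Prdx1 and -0.70 for Gsr to -0.20 for Txnrd1, and came from every role: all 3 thioredoxin genes, 3 of 5 glutathione genes, 3 of 6 peroxiredoxins, 4 of 5 peroxide and superoxide enzymes, 5 of 6 NADPH enzymes, 2 of the remaining 4 genes and Nfe2l2 among the regulators. Sqstm1, at 0.038 (adjusted p = 0.798), and Slc7a11, at 0.22 (adjusted p = 0.211), were not called, and Me1, at 0.41 (adjusted p = 0.0672), had the highest value. The median of the 34 was -0.37, against -0.017 over all genes. With library size alone, 17 members were lower and 1, Me1, was higher, while the share of all calls that were higher was 66.5%, against 37.6% with TMM. No called value of any member changed sign in any alternative, for this or the other comparisons. Among the cell type markers, the interaction was higher for 6 and lower for 1 of 10 stromal markers, higher for 0 and lower for 6 of 10 tested neutrophil markers, and higher for 1 and lower for 8 of 10 macrophage markers, and their part was not tested.

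**Figure D5:**
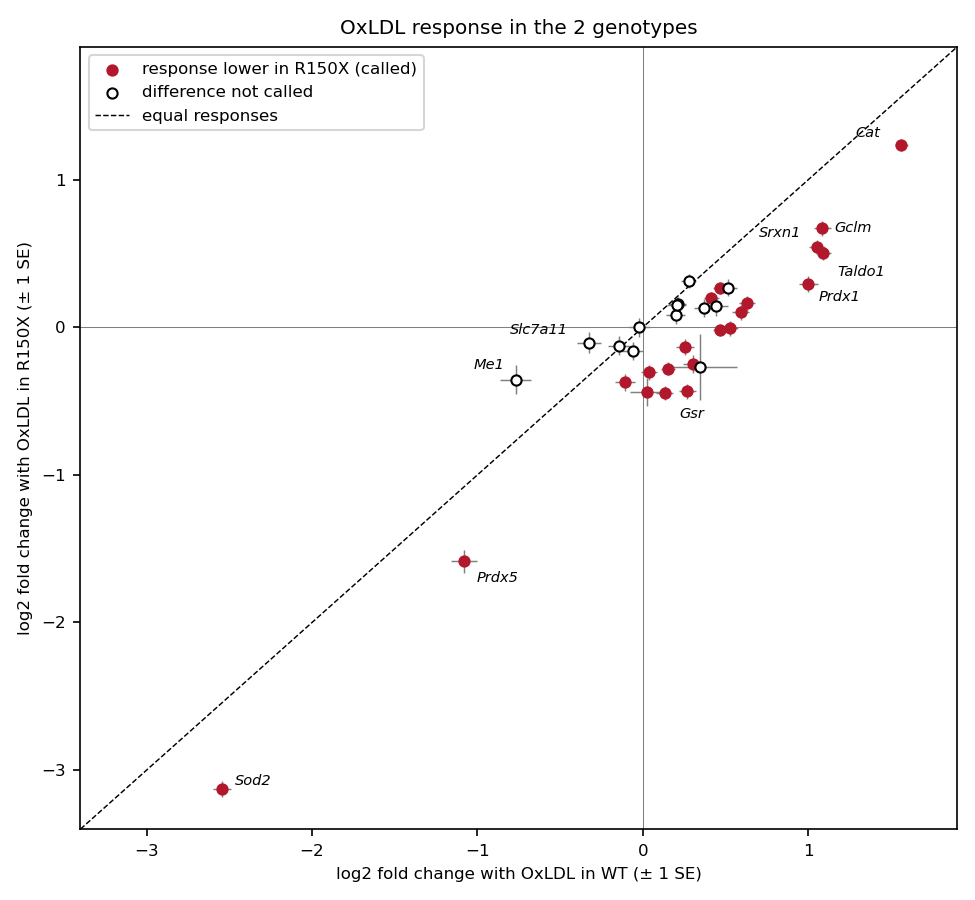
Log2 fold change with OxLDL in R150X (vertical) against that in WT (horizontal) for each of the 34 genes, with bars of ± 1 SE and a dashed line of equal responses. The 21 filled points, where the lower response in R150X was called, lie below the line across the range from Sod2 to Cat.

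A further list of 61 genes of the same pathways gave a more mixed picture. Of the 60 that passed the filter, 22 were higher and 8 lower in untreated R150X than in untreated WT, where 18.1% and 14.8% of all genes were. With OxLDL, 8 were higher and 3 lower in R150X, against 6.10% and 6.92% of all genes. OxLDL raised 17 and lowered 12 in R150X, against 18.4% and 20.6%, and raised 23 and lowered 13 in WT, against 22.7% and 23.1%. The interaction was higher for 2 and lower for 9, against 3.13% and 5.19%. As shares of the 60 genes, the 13 that OxLDL lowered in WT and the 2 in the interaction came to 21.7% and 3.33%, near the background, as were the 12 lowered in R150X. Hmox1, haem oxygenase and a target that BACH1 represses, averaged 677 ± 10.9 CPM in OxLDL-treated R150X, 610.2 ± 33.5 in untreated R150X, 791 ± 16.5 in OxLDL-treated WT and 597 ± 11.4 in untreated WT (SD, n = 3 each). Its untreated genotype difference was 0.031 (adjusted p = 0.617), and it was lower in R150X with OxLDL, with a log2 change of -0.22 (SE 0.0438, adjusted p = 0.00116). Slc3a2, the partner chain of Slc7a11, was higher in R150X in both conditions, by 0.31 (adjusted p = 0.000298) untreated and 0.32 (adjusted p = 0.000403) with OxLDL. Txnip, which inhibits thioredoxin, was lower in R150X with OxLDL, with a log2 change of -0.50 (SE 0.0449, adjusted p = 7.38e-08), and its rise with OxLDL was 0.14 in R150X and 0.55 in WT.

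In untreated cells the NADPH-dependent reductases Akr1a1 and Cbr3 rose most in R150X among the called genes with at least 5 CPM in a group, at 0.65 (adjusted p = 1.74e-10) and 0.61 (adjusted p = 0.000219), and the glutathione-degrading enzyme Chac1 and the extracellular superoxide dismutase Sod3 fell most, at -0.60 (adjusted p = 0.00235) and -0.55 (adjusted p = 6.38e-07). With OxLDL, Ggt5 and Osgin1 were higher in R150X, at 0.44 (adjusted p = 0.00167) and 0.40 (adjusted p = 0.000561), and Sod3 was lower at -0.59 (adjusted p = 2.37e-06). OxLDL raised Ggt5 by 0.92 in R150X and 0.95 in WT, raised Oplah by 0.74 in R150X, and raised the aldo-keto reductase Akr1b8 by 0.96 in WT. Akr1b8 was higher with OxLDL in R150X too, with means of 49.9 CPM treated and 30.1 CPM untreated. Oplah averaged 7.05 CPM in OxLDL-treated WT and 6.24 CPM in untreated WT. OxLDL lowered the glutaredoxin gene Glrx, with a log2 change of -1.48 in R150X and -1.51 in WT, and Sod3, with a log2 change of -1.28 in R150X and -1.24 in WT. The response to OxLDL was higher in R150X for Sesn2, at 0.47 (adjusted p = 0.00111), and for Nfe2l1, which encodes a relative of NRF2, at 0.29 (adjusted p = 0.0121). It was lower for Cbr3, at -0.71 (adjusted p = 0.00453), and for the pentose phosphate enzyme Rpia, at -0.50 (adjusted p = 0.0351).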

How the data were processed

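RNA from 12 libraries of mouse bone marrow-derived macrophages was isolated with a Qiagen RNeasy kit and made into libraries with a Hieff NGS Ultima kit, as the labels' protocols state. The values deposited by the authors were whole-number, unnormalised counts for each gene. The submitters' processing notes name FastQC, HISAT2, featureCounts, DESeq2, mm10 and GRCm38, with no versions. The annotation release and the strand setting are not given in the sources used here. If strand was not used, position alone cannot assign a read in exons where genes overlap. How such reads were counted is not given, so counts of overlapping genes are uncertain. Symbols, positions and exon lengths came from GENCODE M21 (GRCm38). Columns were assigned to samples by name.

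Genes were filtered with filterByExpr, which left 15338, and scaled by TMM (factors 0.969 to 1.05). All 12 libraries entered a single edgeR 4.0.16 model (R 4.3.3) with 4 group coefficients, and 5 contrasts were tested with its quasi-likelihood test and Benjamini-Hochberg adjustment. SE is that of the log2 fold change, and the common biological coefficient of variation was 0.0608. The fit was also run on counts simulated from its own model with set changes, which cannot test the scaling or the replicate structure of these libraries. No pair of replicates agreed within sampling noise.

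Members and lists were chosen with earlier results of these data known. Values in every library are given for members called in the interaction, for the 5 highest and 3 lowest called members of each comparison of 2 groups and for Nfe2l2, Keap1 and Bach1. Of 61 other pathway genes, the 2 called genes of each direction with the largest change and at least 5 CPM in a group are named, with Hmox1, Txnip and Slc3a2. Copies were sought with blastn at 95% identity over at least 200 bases. Alternatives were other scalings, no filter, DESeq2 1.42.0, a replicate block, no genes on chromosomes X and Y, the 2 groups alone and each library left out.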

Additional observations from a re-analysis of the deposited data

Results flagged for a closer look

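The response to OxLDL differed between the genotypes, by edgeR's test of the interaction itself, for 21 of the 34 members and for 7 of the other pathway genes named in the text. The values are the log2 response in R150X minus that in WT. Among members they were -0.71 for Prdx1, -0.70 for Gsr, -0.59 for Taldo1, -0.59 for Sod2, -0.58 for Txn1, -0.55 for Blvrb, -0.53 for Gpx4, -0.51 for Srxn1, -0.51 for Prdx5, -0.49 for Esd, -0.49 for Pgd, -0.47 for Idh1, -0.46 for Gss, -0.43 for Nfe2l2, -0.41 for Gclm, -0.39 for Gpx1, -0.34 for Tkt, -0.33 for Cat, -0.26 for Prdx2, -0.22 for G6pdx and -0.20 for Txnrd1. Among the other genes they were -0.71 for Cbr3, -0.50 for Rpia, -0.48 for Akr1a1, -0.41 for Txnip, -0.26 for Hmox1, 0.29 for Nfe2l1 and 0.47 for Sesn2.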

How the results depend on the processing

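Over the members, 2370 values were computed under alternatives. Of the 1476 that stood against a called value, 1384 kept the call, 92 lost it and 0 changed sign; among uncalled values, 27 became called and 44 changed sign. Counts that moved by more than 1.5 times were few, and the cause was not tested except where stated. With library size alone, 1849 genes were higher between untreated genotypes and 2244 with OxLDL in WT, 7 members were lower with OxLDL in WT, and the interaction was higher for 878 and lower for 442 genes. Without genes on chromosomes X and Y, which removes Prdx4 and G6pdx, 3 members were higher in R150X with OxLDL, and without a low-count filter 1 was lower. In the interaction 1 member, Me1, was higher with library size alone, without the filter, with DESeq2 and with the replicate block (log2 0.51, 0.42, 0.42 and 0.41). The replicate block moved no other member count by over 1.5 times. Same-numbered libraries correlated in their deviations from group means by -0.042 to 0.16, over 0.1 in 2 of 18 pairs, and 9 of 12 libraries correlated best with their own number. These values do not settle whether the numbers mark pairs. The labels do not state a pairing, so the main fit had no replicate block.

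Leaving out each library in turn gave 26 to 27 members higher and 1 lower between untreated genotypes, 3 to 4 higher and 1 to 3 lower with OxLDL, 22 to 23 higher and 4 lower with OxLDL in WT, 10 to 14 higher and 10 to 11 lower in R150X, and 0 to 1 higher and 17 to 22 lower in the interaction, where Me1 was called without WT_OxLDL replicate 1 or WT replicate 3. Signs of uncalled values changed as follows. Bach1 between untreated genotypes was -0.0012 with DESeq2's size factors, -0.070 with library size alone, -0.0041 without the filter, -0.0011 with DESeq2 and -0.013 in the 2 groups alone. With library size alone, Mafg was -0.028 between untreated genotypes, 0.0075 with OxLDL and 0.036 in the interaction, Prdx3 -0.015 between untreated genotypes, Gss -0.091 and Tkt -0.076 with OxLDL in WT, and Abcc1 0.034 in the interaction. Prdx3 with OxLDL in R150X was 0.0014 with DESeq2's size factors and 0.0014 with DESeq2. Without single libraries the genotype differences ranged over -0.023 to 0.050 for Bach1 and -0.075 to 0.044 for Abcc1 in untreated cells and -0.047 to 0.038 for Mafg, -0.12 to 0.040 for Gss, -0.091 to 0.025 for Prdx1, -0.030 to 0.0018 for Gpx4 and -0.015 to 0.046 for Esd with OxLDL. The OxLDL changes ranged over -0.044 to 0.029 for Prdx3, -0.050 to 0.054 for Gpx4 and -0.052 to 0.019 for Pgd in R150X and -0.028 to 0.066 for Gss and -0.076 to 0.016 for Prdx3 in WT, and the interaction over -0.024 to 0.076 for Prdx3 and -0.044 to 0.065 for Prdx4.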
